A study of Rattus norvegicus with 47 samples.

Results

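The conjugation enzymes described here were the 43 genes of the glutathione transferase (Gst), UDP-glucuronosyltransferase (Ugt) and sulfotransferase (Sult) families that the array measured with a probe set assigned to a single symbol. They were chosen by symbol alone, as every symbol starting with Gst, Ugt or Sult followed by a letter or digit, and Gstp1 was left out. They made up 43 of the 14217 genes measured, of which 20 were Gst, 9 Ugt and 14 Sult genes. Each gene was represented by its probe set with the highest mean within a fixation, and all values are deposited log2 expression values, so a difference of 1 is a doubling. The genes of the Ugt1a locus share probe sets with one another and were left out, as were probe sets shared by Gsta5 with Gsta2 and by Sult1c2 with a second gene.

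The lesions came from male Han-Wistar rats that received N-nitrosomorpholine (NNM, a liver carcinogen, 250 mg/kg) once at 4 weeks of age and, after 3 weeks of recovery, phenobarbital (PB, a barbiturate that activates the nuclear receptor CAR, 50 mg/kg per day) in the drinking water for up to 17 months. Frozen pieces were homogenised whole and comprised 5 nodules from 3 animals, 6 adenomas from 2 animals, 4 carcinomas from 3 animals, 4 carcinomas labelled with a beta-catenin mutation from 3 animals, and 7 samples of surrounding liver from 5 animals. Formalin-fixed, paraffin-embedded (FFPE) tissue was isolated by laser microdissection and comprised 9 foci from 3 animals, 5 adenomas from 3 animals, and 4 samples of surrounding liver from 4 animals. The surrounding liver had received NNM and PB as well, so none of the comparisons measures an effect of either agent. Several lesions came from 1 animal, so arrays of a group are not independent animals, and each fit carried the animal as a term.

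Conjugation is the second phase of xenobiotic and hormone metabolism, in which an enzyme joins a lipophilic or electrophilic compound to a polar group so that it can be excreted. Glutathione transferases add glutathione to electrophiles, UDP-glucuronosyltransferases of the endoplasmic reticulum add glucuronic acid to steroids, bile acids and drugs, and cytosolic sulfotransferases add a sulfate group taken from the activated donor PAPS. Hepatocytes carry most of these enzymes, and many of their genes respond to the PB receptor CAR, to PXR or to the stress sensor Nrf2. Gstp1, the placental glutathione transferase not counted among the 43, is the classical marker of early rat liver lesions.

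Promoter sequences were taken from the RefSeq table for GRCr8, which gives 250 bases before and 50 bases after each gene's start, and which held an entry for 37 of the 43 genes. Gstm6l, Gstt1, Gstt2, Ugt2a1, Sult1e1 and Sult4a1 had none. The first pair is shown because Sult2a2 and Sult2a6, hydroxysteroid and bile acid sulfotransferases that lie close together on chromosome 1, both fell in 3 lesion types. Capitals mark the longest run of bases that both share, 34 letters that a script found. Counted from the gene's start, its first letter lies at -45 in Sult2a2 (chr1:85104483-85104782, minus strand) and at -53 in Sult2a6 (chr1:84097759-84098058, minus strand).
Sult2a2: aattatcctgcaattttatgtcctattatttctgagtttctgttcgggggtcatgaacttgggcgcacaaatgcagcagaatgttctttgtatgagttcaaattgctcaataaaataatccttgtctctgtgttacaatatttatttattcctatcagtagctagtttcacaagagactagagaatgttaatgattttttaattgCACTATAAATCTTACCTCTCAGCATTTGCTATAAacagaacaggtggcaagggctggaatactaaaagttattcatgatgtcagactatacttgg
Sult2a6: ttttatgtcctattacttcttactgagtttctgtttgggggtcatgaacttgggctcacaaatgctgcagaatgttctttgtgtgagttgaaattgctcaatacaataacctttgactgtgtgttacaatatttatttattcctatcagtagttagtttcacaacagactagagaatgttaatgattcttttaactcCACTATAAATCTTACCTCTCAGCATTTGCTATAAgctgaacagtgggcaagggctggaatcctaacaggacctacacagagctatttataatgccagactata
The 2 promoters matched at 251 of 309 aligned positions (81.2%). The run occurred in 3 of all 33469 promoters in the table, and these 2 genes were the only members among them. The letters GTTAAT, known as a core of binding sites of the hepatocyte factor HNF1 and searched on both strands, also lie in both promoters outside the run. They occurred in 7.452% of all promoters and in Gsta1, Gsta3 and Ugt2b10 among the other members.

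The second pair shows mu class genes of the chromosome 2 cluster whose levels moved in opposite directions. Capitals mark the letters TGACNNNGC, the core of the antioxidant response element, searched on both strands. Gstm5 (chr2:198219519-198219818, plus strand) held 2 matches, with first letters at -113 and -53 from its start, and Gstm7 (chr2:198260270-198260569, minus strand) held 1, at -14.
Gstm5: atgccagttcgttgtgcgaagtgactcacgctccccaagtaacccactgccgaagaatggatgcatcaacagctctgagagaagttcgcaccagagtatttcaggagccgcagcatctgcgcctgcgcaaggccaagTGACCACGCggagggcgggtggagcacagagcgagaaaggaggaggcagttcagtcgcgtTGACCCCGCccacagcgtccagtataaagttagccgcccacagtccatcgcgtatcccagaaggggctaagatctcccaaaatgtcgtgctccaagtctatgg
Gstm7: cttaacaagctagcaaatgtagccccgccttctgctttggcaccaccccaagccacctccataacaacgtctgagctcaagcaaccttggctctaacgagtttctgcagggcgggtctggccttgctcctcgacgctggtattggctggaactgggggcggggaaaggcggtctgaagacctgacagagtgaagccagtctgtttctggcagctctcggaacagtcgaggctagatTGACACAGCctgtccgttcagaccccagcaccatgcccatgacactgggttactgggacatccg
The core occurred in 12.065% of all promoters and in 6 of the 37 members with an entry (Gsta1, Gsta3, Gstcd, Gstm5, Gstm7 and Gstz1). Of these 6, Gsta1, Gsta3, Gstcd and Gstm5 rose and Gstm7 and Gstz1 fell in at least 1 comparison with surrounding liver.

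The third pair belongs to Ugt2b7 and Ugt2b15, the Ugt genes that rose. Capitals mark the longest run of bases that both share, 25 letters found in the same way. Its first letter lies at -90 from the start of Ugt2b7 (chr14:21251285-21251584, plus strand) and at -78 from the start of Ugt2b15 (chr14:21122616-21122915, plus strand).
Ugt2b7: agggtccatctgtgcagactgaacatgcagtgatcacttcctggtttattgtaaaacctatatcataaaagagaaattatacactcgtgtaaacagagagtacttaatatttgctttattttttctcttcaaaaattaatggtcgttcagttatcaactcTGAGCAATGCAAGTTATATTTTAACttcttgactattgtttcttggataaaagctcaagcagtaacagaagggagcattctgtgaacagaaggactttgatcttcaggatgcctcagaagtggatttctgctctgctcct
Ugt2b15: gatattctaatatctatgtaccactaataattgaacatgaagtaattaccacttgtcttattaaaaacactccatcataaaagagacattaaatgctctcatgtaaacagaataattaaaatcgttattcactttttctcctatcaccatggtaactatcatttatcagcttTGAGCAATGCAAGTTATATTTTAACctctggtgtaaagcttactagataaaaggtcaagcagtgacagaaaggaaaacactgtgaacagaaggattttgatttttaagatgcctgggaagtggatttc
The run occurred in 7 of all promoters in the table, and Ugt2b and Ugt2b35, which did not rise, carried it too. All of these matches describe letters in these windows and name no bound factor.

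The deposited array medians lay between 5.49 and 5.59 in frozen and between 5.58 and 5.68 in FFPE tissue. The 6 measured hepatocyte markers averaged 13.81 to 13.91 in frozen adenomas, 13.72 to 13.92 in carcinomas and 13.28 to 13.85 in beta-catenin carcinomas, against 13.83 to 14.02 in frozen surrounding liver. Of these 6 hepatocyte markers, 1 rose and 2 fell in frozen adenomas, with changes from -0.45 to 1.13. In each carcinoma group 1 fell, and 1 rose in foci and in FFPE adenomas. Markers of other cells also moved with the lesions. Macrophage markers fell (3 of 7 in frozen adenomas, 3 in carcinomas, 4 in beta-catenin carcinomas and 2 in foci), cholangiocyte markers rose (2 of 4 in adenomas of either fixation, with means of 6.65 to 8.66 in frozen adenomas against 5.64 to 6.42 in frozen surrounding liver), and 3 of 8 stellate and fibroblast markers rose in foci and in FFPE adenomas. Over all genes, 9.57% fell in frozen adenomas, 6.91% in carcinomas, 9.58% in beta-catenin carcinomas and 1.36% in foci. The shares that rose were 15.4% in frozen adenomas, 1.29% in FFPE adenomas and 1.81% in foci. The part of these cells in the results that follow was not tested. In pieces of tissue fewer cells of a type cannot be told apart from less RNA per cell. The control sets named in the labels bear on the mu class. The 3 frozen surrounding samples in the control sets of carcinomas differed from the 4 others in 749 genes (5.27%). Among them were 4 members: Gstm2 (mean 12.58 against 10.64), Gstm3 (8.09 against 6.59), Gstm1 (13.85 against 13.23) and Gsto1 (10.96 against 11.32).

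Of the 43 genes, 24 changed in at least 1 of the 6 comparisons of a lesion with surrounding liver (limma, adjusted p under 0.05 over all 14217 genes). Over all genes 35.7% changed in at least 1 of them, 19.8% rose in at least 1 and 16.1% fell in at least 1. Of the 24 members, 12 rose, 12 fell, and none rose in one lesion and fell in another. Among Gst genes 9 of 20 rose and 5 fell, among Ugt genes 2 of 9 rose and none fell, and among Sult genes 1 of 14 rose and 7 fell. Frozen adenomas held 8 members that rose, where 15.4% of all genes rose, and 11 that fell, where 9.57% of all genes fell. Carcinomas held 4 that rose (4.48% of all genes) and 7 that fell (6.91%), and beta-catenin carcinomas held 1 that rose (7.74%) and 6 that fell (9.58%). FFPE foci held 9 that rose (1.81%) and 4 that fell (1.36%), and FFPE adenomas 8 that rose (1.29%) and 2 that fell (0.872%). Without limma's intensity trend the members' FFPE calls were lost except those of Gsta4, Gstm4 and Sult1c3 in foci and of Gsta4 in adenomas. Frozen nodules held no member past the threshold (0.19% of all genes rose and 0.0352% fell). An unadjusted p under 0.05 was reached there by 7 of the 43 members and by 1811 of all 14217 genes. In frozen adenomas the members that rose made up a share near that of all genes, so nothing about these families is read from that count.

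**Figure D1:**
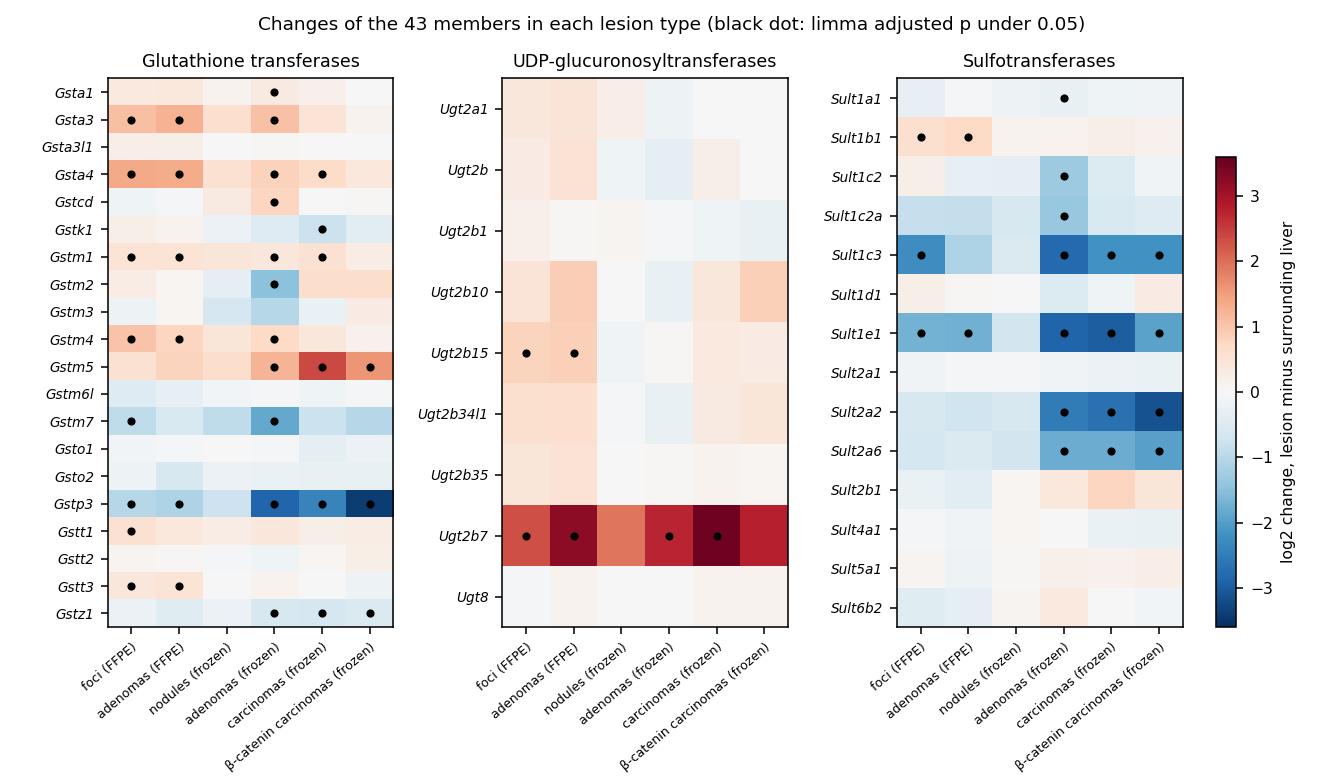
Log2 change of each of the 43 genes (down the page, by family) in each lesion type minus surrounding liver (across), with colour giving the change and a black dot marking a limma adjusted p under 0.05. The dots lie among Gst genes of either sign, on 7 Sult genes that fell, on Sult1b1, which rose, and on Ugt2b7 and Ugt2b15, which rose.

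The median change over all members was close to that over all genes in every frozen lesion, at -0.07 against 0.02 in adenomas, -0.01 against -0.02 in carcinomas, 0.01 against -0.01 in beta-catenin carcinomas and -0.02 against 0.02 in nodules. In FFPE tissue it was 0.19 in foci and 0.05 in adenomas, against -0.02 over all genes in both. The families differed in their medians. In frozen adenomas the Sult median was -0.37 while those of Gst and Ugt were -0.01 and -0.07, and in foci the Ugt median was 0.44, the Gst median 0.23 and the Sult median -0.27. FFPE adenomas gave 0.53 for Ugt, 0.10 for Gst and -0.31 for Sult genes.

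The 19 members that passed the threshold in no lesion comprised 6 Gst, 7 Ugt and 6 Sult genes, with changes between -1.03 and 0.89. All 8 members whose frozen mean lay under 5.5, close to the array medians, were among them: Gsta3l1, Gstm6l, Gsto2, Sult1d1, Sult2a1, Sult4a1, Sult6b2 and Ugt8. The other 11 had frozen means above that level, though Ugt2a1 and Sult5a1 averaged 4.92 and 4.68 in FFPE tissue. Among them were the omega class enzyme Gsto1, which reduces dehydroascorbate, and Sult2b1, a sterol sulfotransferase. A further 8 members passed in 1 comparison with surrounding liver only, and Gstp3 and Sult1e1 in 5 of the 6.

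Gstp3, a pi class paralog of Gstp1, was the glutathione transferase that fell most. It read 7.96, 7.28, 6.44 and 6.51 in the beta-catenin carcinomas and 8.98, 8.03, 7.43 and 8.15 in the carcinomas. The 6 frozen adenomas spanned 6.27 to 8.71 with a median of 7.25, against 10.03 to 11.39 with a median of 10.83 in the 7 frozen surrounding samples. All 14 of these lesions therefore lay below every frozen surrounding sample, with no overlap. Gstp3 fell by 3.42 ± 0.34 (SE, adjusted p = 1.04e-05) in beta-catenin carcinomas, by 2.86 ± 0.33 (adjusted p = 1.23e-05) in frozen adenomas and by 2.42 ± 0.36 (adjusted p = 0.000386) in carcinomas. The 5 nodules, at 10.28, 10.51, 11.08, 10.59 and 9.46, overlapped the surrounding liver and did not pass the threshold. In FFPE tissue the estimated decline was smaller. The difference between fixations, tested for adenomas, was not called (limma, -1.74, adjusted p = 0.108). Foci spanned 8.39 to 10.96 with a median of 10.18 and adenomas read 11.09, 9.71, 9.53, 9.34 and 9.85, against 11.41, 10.55, 10.42 and 10.81 in surrounding liver. Both groups overlapped the surrounding liver, and Gstp3 fell by 1.02 ± 0.24 in foci (adjusted p = 0.0147) and by 1.12 ± 0.27 in FFPE adenomas (adjusted p = 0.0213). These calls held in 7 and 6 of 10 alternatives, and the adenoma call in 12 of 18 fits that left out 1 array. Gstp1 changed the other way, by 2.32 in frozen adenomas, 1.83 in carcinomas, 1.66 in beta-catenin carcinomas, 4.44 in foci and 4.03 in FFPE adenomas.

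Of the 4 alpha class genes, Gsta4 rose in 4 of the 6 comparisons, Gsta3 in 3, Gsta1 in frozen adenomas and Gsta3l1 in none, and none was called in nodules or beta-catenin carcinomas. Gsta4, which conjugates 4-hydroxynonenal and other products of lipid peroxidation, spanned 12.06 to 12.61 in foci (median 12.32) and read 12.32, 12.64, 12.13, 12.34 and 12.25 in FFPE adenomas, against 11.30, 10.76, 10.45 and 11.26 in FFPE surrounding liver. Every FFPE lesion lay above every FFPE surrounding sample. The change was 1.37 ± 0.13 in foci (adjusted p = 2.89e-08, 9 of 9 above their own animal's surrounding liver) and 1.34 ± 0.14 in FFPE adenomas (adjusted p = 6.03e-07, 5 of 5). In frozen tissue it was 0.82 ± 0.14 in adenomas (adjusted p = 0.000281, 6 of 6) and 0.65 ± 0.15 in carcinomas (adjusted p = 0.0072, 4 of 4). Gsta4 was the only member called in FFPE adenomas under every alternative processing tried. Gsta3, whose RefSeq synonym is Yc2 and which in rat conjugates the epoxide of aflatoxin, changed by 1.07 ± 0.20 in frozen adenomas, 1.07 ± 0.27 in foci and 1.25 ± 0.30 in FFPE adenomas (adjusted p = 0.000777, 0.0238 and 0.0226), in 6 of 6, 9 of 9 and 5 of 5 arrays. The Gsta3 call in FFPE adenomas held in 5 of 10 alternatives.

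**Figure D2:**
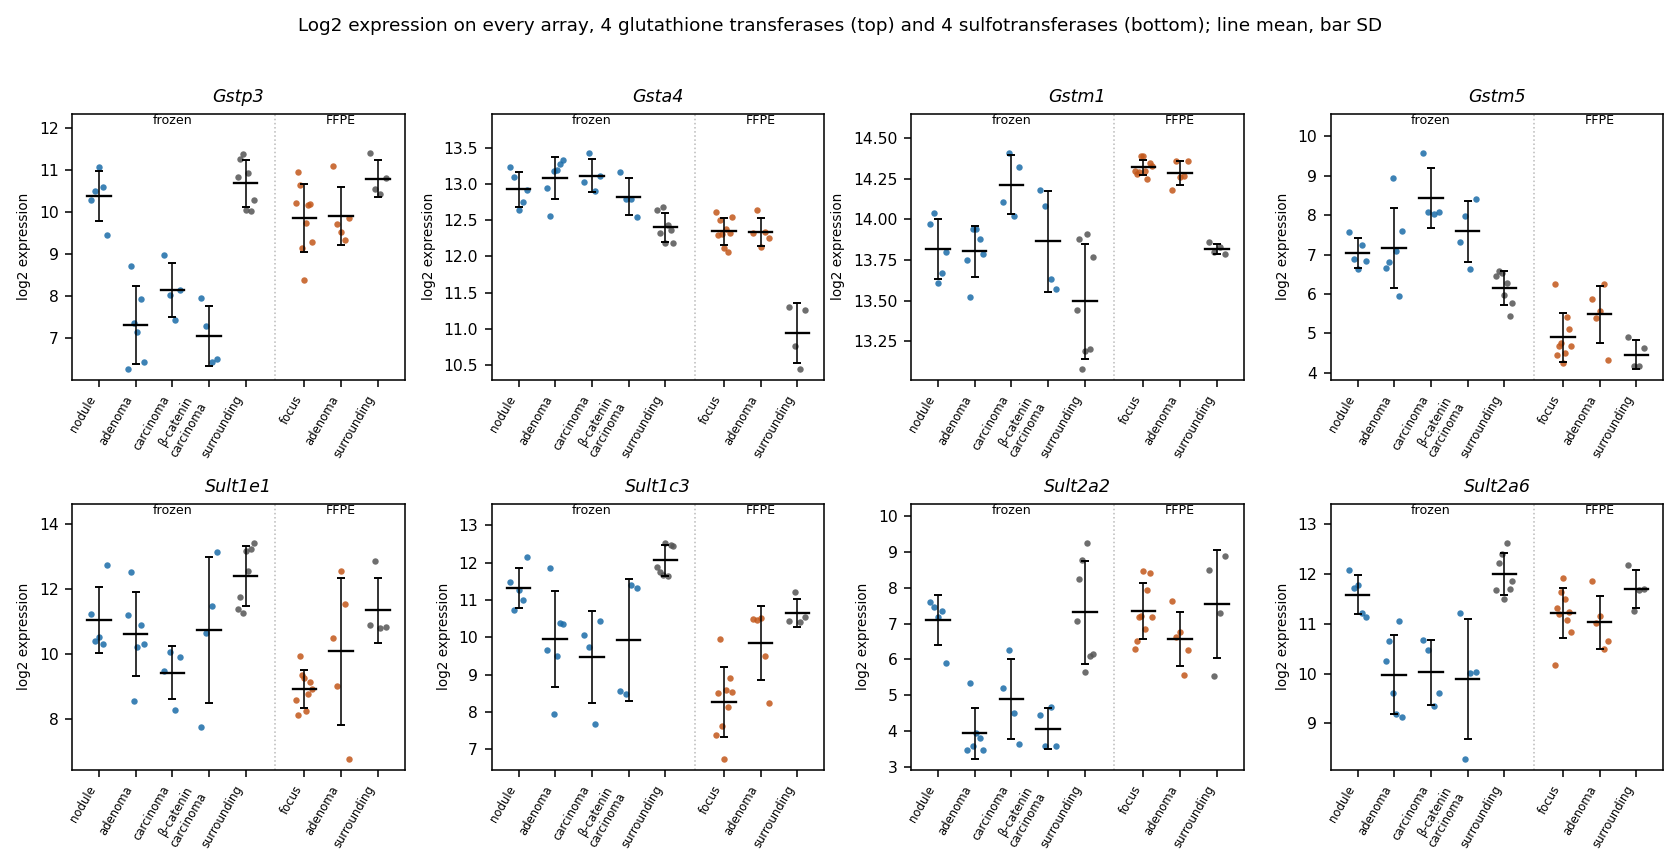
Log2 expression (vertical axis) on every array of the lesion groups and of surrounding liver, frozen left and FFPE right of the dotted line, for 4 Gst genes in the top row and 4 Sult genes in the bottom row; the line is the group mean and the bar the SD. Gstp3 separates frozen adenomas and both carcinoma groups from nodules and surrounding liver, and Gsta4 separates all FFPE lesions from FFPE surrounding liver.

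The mu class genes moved apart. Gstm5, a mu class transferase, read 9.58, 8.09, 8.02 and 8.07 in carcinomas and 7.32, 7.98, 6.64 and 8.40 in beta-catenin carcinomas, and spanned 5.94 to 8.93 (median 6.96) in frozen adenomas, against 5.45 to 6.59 (median 6.29) in frozen surrounding liver. Both carcinoma groups lay above all surrounding samples and the adenomas overlapped them. It changed by 2.37 ± 0.44 in carcinomas (adjusted p = 0.00156), 1.59 ± 0.42 in beta-catenin carcinomas (adjusted p = 0.0124) and 1.22 ± 0.41 in frozen adenomas (adjusted p = 0.0335), with all 14 arrays above their own animal's surrounding liver. With the control set named in the labels as the block, the carcinoma call stood and the calls in beta-catenin carcinomas and adenomas did not (1.44, adjusted p = 0.0945, and 1.41, adjusted p = 0.0707). In FFPE tissue Gstm5 was dim, at 4.24 to 6.24 in foci against 4.16 to 4.90 in surrounding liver, and was not called.

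Gstm1, an abundant mu class enzyme of liver, spanned 14.25 to 14.39 in foci and read 14.18, 14.36, 14.26, 14.27 and 14.36 in FFPE adenomas, against 13.86, 13.80, 13.83 and 13.79 in FFPE surrounding liver. These groups did not overlap, although the difference was small, at 0.49 ± 0.06 in foci (adjusted p = 6.55e-06) and 0.48 ± 0.07 in FFPE adenomas (adjusted p = 5.86e-05), and both calls ended without the intensity trend (adjusted p = 0.135 and 0.245). In frozen tissue it was 0.42 ± 0.13 in adenomas (adjusted p = 0.0225) and 0.56 ± 0.14 in carcinomas (adjusted p = 0.012), and the carcinoma value was not called with the control set as the block (0.35, adjusted p = 0.126). Gstm4 changed by 0.73 ± 0.16 in frozen adenomas, 1.02 ± 0.16 in foci and 0.79 ± 0.18 in FFPE adenomas (adjusted p = 0.00254, 0.000231 and 0.0157).

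Gstm7 fell by 1.84 ± 0.38 in frozen adenomas (adjusted p = 0.0014, 6 of 6 arrays) and by 0.92 ± 0.23 in foci (adjusted p = 0.0221, 9 of 9). Its change was -0.78 in carcinomas, -1.04 in beta-catenin carcinomas and -0.55 in FFPE adenomas, none of them called, and -0.91 in nodules (adjusted p = 0.314). Gstm2 fell by 1.48 ± 0.38 in frozen adenomas (adjusted p = 0.0065) and was higher in carcinomas than in adenomas by 2.13, the only such member. Gstm2 also differed between the control sets, and with these as the block both calls were lost (adjusted p = 0.0533 and 0.929).

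In the order of the genes along chromosome 2 in GRCr8, the changes in frozen adenomas differed in sign. They were 1.22 for Gstm5, -0.05 for Gstm6l, -1.84 for Gstm7, -1.03 for Gstm3 (adjusted p = 0.0523), -1.48 for Gstm2, 0.42 for Gstm1 and 0.73 for Gstm4. Gstm5 at one end and Gstm1 and Gstm4 at the other had positive values, and the 4 genes between them negative ones. In foci the same order gave 0.54, -0.48, -0.92, -0.18, 0.25, 0.49 and 1.02, and in beta-catenin carcinomas 1.59, -0.08, -1.04, 0.29, 0.63, 0.28 and 0.15. Mu class genes are close in sequence, and how far a probe set reads a neighbour's transcript was not tested.

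**Figure D3:**
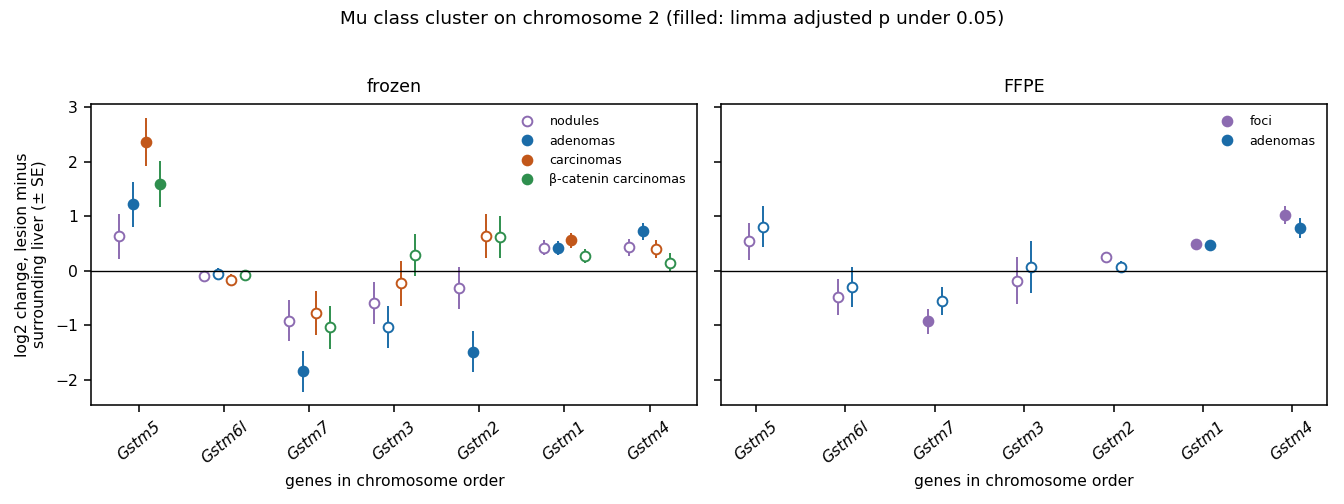
Log2 change (± SE) in each lesion type minus surrounding liver for the 7 mu class genes in chromosome order, frozen left and FFPE right; filled points passed a limma adjusted p of 0.05. Gstm5 and Gstm4 at the ends lie above 0 and Gstm7 lies below 0 in every lesion type.

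Among single members of the other classes, Gstz1, the maleylacetoacetate isomerase of tyrosine breakdown, fell by 0.57 ± 0.15 in frozen adenomas, 0.60 ± 0.16 in carcinomas and 0.53 ± 0.15 in beta-catenin carcinomas (adjusted p = 0.00766, 0.0169 and 0.0183), in every array of each. Gstk1, the kappa class enzyme of mitochondria and peroxisomes, fell by 0.76 ± 0.24 in carcinomas alone among the comparisons called (adjusted p = 0.0438). That call held in 12 of the 26 fits that left out 1 array. The theta class genes Gstt1 and Gstt3 changed by 0.54 ± 0.13 and 0.41 ± 0.10 in foci (adjusted p = 0.0199 and 0.0147), and Gstt3 by 0.49 ± 0.11 in FFPE adenomas (adjusted p = 0.0113). Gstcd, a protein with a glutathione transferase C-terminal domain, was lower in carcinomas than in adenomas by a log2 difference of -0.77. That call held in 17 of 26 fits that left out 1 array and was lost with the control set as the block (-0.35, adjusted p = 0.929).

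Of the 14 sulfotransferases, 7 fell and none rose in frozen adenomas, 4 fell and none rose in each carcinoma group, and none was called in nodules. The 4 were Sult1c3, Sult1e1, Sult2a2 and Sult2a6 in both. Sult1e1, the estrogen sulfotransferase, read 9.48, 10.05, 8.27 and 9.91 in carcinomas and spanned 8.56 to 12.52 (median 10.60) in frozen adenomas, against 11.26 to 13.42 (median 12.55) in frozen surrounding liver. The carcinomas lay below all surrounding samples, while adenomas overlapped them. The beta-catenin carcinomas, at 7.75, 10.63, 11.48 and 13.13, covered a wider span than either. Sult1e1 fell by 2.96 ± 0.63 in carcinomas (adjusted p = 0.00459), by 2.89 ± 0.59 in frozen adenomas (adjusted p = 0.00139) and by 1.93 ± 0.61 in beta-catenin carcinomas (adjusted p = 0.0331). The last call held in 6 of 10 alternatives, and without beta-catenin carcinoma replicate 1, whose source name does not give the mutation, the value was -1.09 (adjusted p = 0.266).

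In FFPE tissue Sult1e1 spanned 8.12 to 9.93 (median 8.91) in foci and read 10.48, 9.02, 12.57, 11.55 and 6.77 in adenomas, against 10.89, 12.85, 10.80 and 10.83 in surrounding liver. The foci lay below all surrounding samples, as did the adenomas at 10.48, 9.02 and 6.77. The adenomas at 12.57 and 11.55 lay within the span of the surrounding samples, and no adenoma lay above it. It fell by 1.71 ± 0.40 in foci (adjusted p = 0.0145) and by 1.74 ± 0.45 in FFPE adenomas (adjusted p = 0.0349), and the adenoma call held in 4 of 10 alternatives, with a value of -0.95 (adjusted p = 0.269) without FFPE adenoma replicate 5. The adenomas at 12.57 and 11.55 and the surrounding sample at 12.85 were from animal 14.

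Sult1c3, whose RefSeq synonyms include St1c1 and HAST-I and which in rat sulfates N-hydroxyarylamines, read 10.05, 9.74, 7.68 and 10.44 in carcinomas and 8.55, 8.49, 11.40 and 11.31 in beta-catenin carcinomas, and spanned 7.95 to 11.87 (median 10.00) in frozen adenomas, against 11.65 to 12.53 (median 11.89) in frozen surrounding liver. Both carcinoma groups lay below all surrounding samples. It fell by 2.81 ± 0.52 in frozen adenomas, 2.17 ± 0.56 in carcinomas and 2.18 ± 0.54 in beta-catenin carcinomas (adjusted p = 0.00062, 0.0145 and 0.00719). With the control set as the block the carcinoma value was -2.26 (adjusted p = 0.0504). Foci spanned 6.74 to 9.94 (median 8.51), below FFPE surrounding liver at 10.43, 11.22, 10.42 and 10.53, while FFPE adenomas, at 10.49, 10.46, 10.52, 9.51 and 8.25, reached it and were not called. The related Sult1c2 and Sult1c2a, its neighbours on chromosome 9, fell by 1.32 ± 0.41 and 1.35 ± 0.37 in frozen adenomas (adjusted p = 0.024 and 0.01).

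The hydroxysteroid sulfotransferase Sult2a2, whose promoter is shown above with that of Sult2a6, read 5.19, 6.27, 4.50 and 3.64 in carcinomas and 4.46, 3.57, 4.66 and 3.58 in beta-catenin carcinomas, and spanned 3.46 to 5.34 (median 3.70) in frozen adenomas, against 5.66 to 9.25 (median 7.06) in frozen surrounding liver. Adenomas and beta-catenin carcinomas lay below all surrounding samples, and all of them, with 3 of the 4 carcinomas, read under the array medians, where a level is poorly resolved and so is the size of a change. It fell by 3.14 ± 0.50 in beta-catenin carcinomas, 2.69 ± 0.52 in carcinomas and 2.51 ± 0.48 in frozen adenomas (adjusted p = 0.000215, 0.00205 and 0.000826). The nodules, at 7.61, 7.46, 7.17, 7.35 and 5.89, lay within the span of the surrounding liver. Sult2a6 was the brighter of the pair, at 9.13 to 11.06 (median 9.93) in frozen adenomas against 11.50 to 12.62 (median 11.85) in frozen surrounding liver, with no overlap. Its change was -1.97 ± 0.42 in beta-catenin carcinomas, -1.80 ± 0.44 in carcinomas and -1.79 ± 0.41 in frozen adenomas (adjusted p = 0.00273, 0.0105 and 0.00311).

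In FFPE tissue neither Sult2a gene was called. Sult2a2 spanned 6.30 to 8.48 (median 7.19) in foci and read 7.62, 6.61, 6.76, 5.57 and 6.26 in adenomas, against 8.49, 5.54, 7.29 and 8.89 in surrounding liver. One sulfotransferase rose, Sult1b1, which sulfates phenols and thyroid hormones, by 0.58 ± 0.12 in foci (adjusted p = 0.00324, 9 of 9 arrays) and by 0.71 ± 0.13 in FFPE adenomas (adjusted p = 0.00173, 5 of 5).

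The Ugt genes on the array were 8 Ugt2 genes and Ugt8. Ugt2b7 rose in 4 of the 6 comparisons with surrounding liver and Ugt2b15 in foci and FFPE adenomas. Ugt2b7, a glucuronosyltransferase whose human counterpart of that name conjugates morphine and carboxylic acid drugs, read 13.67, 12.36, 12.16 and 11.82 in carcinomas and 9.25, 13.36, 13.51 and 10.07 in beta-catenin carcinomas, and spanned 6.23 to 13.43 (median 10.04) in frozen adenomas, against 5.31 to 9.94 (median 8.43) in frozen surrounding liver. The carcinomas lay above all surrounding samples and the other groups overlapped them. Ugt2b7 changed by 3.50 ± 1.04 in carcinomas (adjusted p = 0.0328, 4 of 4 arrays) and 2.74 ± 0.97 in frozen adenomas (adjusted p = 0.0432, 6 of 6), and by 2.80 in beta-catenin carcinomas (adjusted p = 0.0587). The adenoma call held in 5 of 10 alternatives, and with the control set as the block neither call stood (adjusted p = 0.122 for both). In nodules it had the largest change of any member, 1.93, which was not called (adjusted p = 0.421).

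In FFPE tissue Ugt2b7 spanned 4.76 to 10.50 (median 8.35) in foci and read 8.54, 11.46, 5.70, 9.27 and 9.57 in adenomas, against 5.34, 4.33, 5.10 and 6.0 in surrounding liver. It changed by 2.33 ± 0.61 in foci (adjusted p = 0.0288, 8 of 9 arrays) and 3.23 ± 0.67 in FFPE adenomas (adjusted p = 0.00675, 5 of 5). The call in foci held in 6 of 10 alternatives and 13 of 18 fits that left out 1 array, and the 3 foci of animal 18 read 5.39, 5.5 and 4.76, against 5.10 in its surrounding liver. Ugt2b15, a steroid glucuronosyltransferase whose RefSeq synonyms include Ugt2b3, spanned 11.17 to 12.62 in foci (median 12.03) and read 12.60, 12.92, 11.32, 12.09 and 11.76 in FFPE adenomas, against 11.78, 11.24, 10.94 and 10.57 in FFPE surrounding liver. The groups overlapped, and the changes were 0.80 ± 0.18 (adjusted p = 0.00984) and 0.86 ± 0.20 (adjusted p = 0.0167), in 9 of 9 and 5 of 5 arrays. In frozen tissue Ugt2b15 was not called, at 11.73 to 12.69 in adenomas against 10.55 to 12.70 in surrounding liver.

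The 2 remaining Ugt genes with values by array were called in no lesion. Ugt2b10 read 10.50, 12.57, 12.22 and 12.33 in beta-catenin carcinomas and 12.01, 11.13, 11.95 and 10.95 in carcinomas, against 10.68 to 11.30 in frozen surrounding liver, and overlapped it in both. Ugt2b34l1 spanned 7.27 to 8.32 (median 7.93) in frozen adenomas against 7.94 to 9.24 (median 8.68) in frozen surrounding liver, and 9.49 to 10.24 in foci against 9.33, 8.77, 8.89 and 9.75 in FFPE surrounding liver.

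Ugt2b, whose RefSeq synonym is Ugt2b2, differed by animal and not by lesion, and is described here because of its values, which were seen first. In animal 14 it read 4.69 to 5.51 on all 5 frozen arrays and 3.67 to 5.03 on all 3 FFPE arrays, and in animal 18 it read 3.28 to 4.35 on all 4 FFPE arrays, lesions and surrounding liver alike. Every other study array read 12.57 to 13.57 in frozen tissue (21 arrays) and 11.92 to 12.63 in FFPE tissue (11 arrays). No array lay between these ranges. A second probe set for Ugt2b gave 3.29 to 4.21 in frozen tissue of animal 14 and 9.14 to 11.29 in frozen tissue of the other animals. When each animal's frozen arrays were set against those of all others in turn, the gap of 7.06 at Ugt2b in animal 14 exceeded every other gap at any gene in any animal, and the next gene in animal 14 had a gap of 0.17. As background, rats of Wistar stock are known to segregate a deletion of the androsterone glucuronosyltransferase gene. No genotype was measured here. With the animal as a term the lesion changes of Ugt2b lay between -0.36 and 0.53, and none was called.

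**Figure D4:**
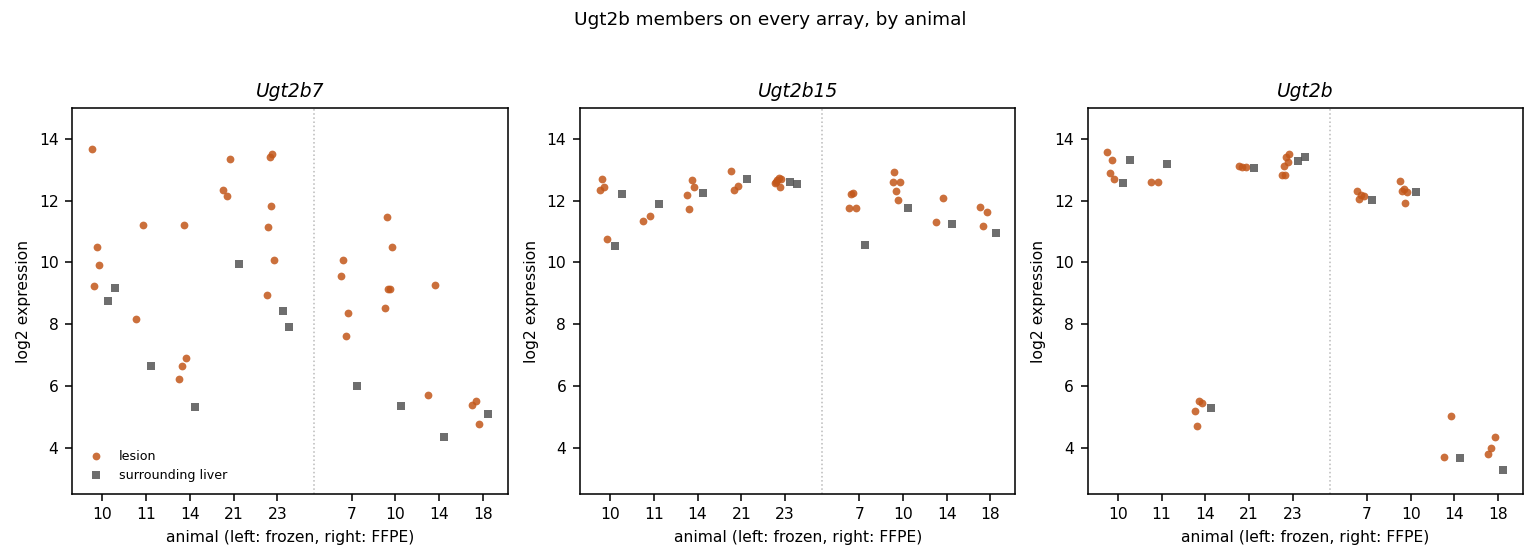
Log2 expression (vertical axis) of Ugt2b genes on every study array by animal (horizontal axis, frozen left and FFPE right of the dotted line), with lesions as orange circles to the left of surrounding liver as grey squares. Ugt2b is low on every array of animals 14 and 18 and high on all others, and Ugt2b7 lies above the surrounding liver of its own animal in 32 of 33 lesions.

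Each lesion array was also set against the mean surrounding liver of its own animal and fixation, over all 33 lesion arrays. Gstm1 lay above it in 33 of 33, and Gstp3 and Sult1e1 below it in 33 of 33. For animal 23 in frozen tissue that mean joined surrounding samples at 13.20 and 13.77 for Gstm1. Beta-catenin carcinoma replicates 3 and 4, at 13.63 and 13.57, lay below the sample of their own control set, at 13.77. Over all genes 0.521% lay above in every lesion array and 0.971% below. Gsta4 and Ugt2b7 lay above in 32, Gsta3 and Gstm4 in 31 and Gstm5 in 30. Gstm7, Sult1c3 and Sult2a6 lay below in 31, Gstz1 in 30 and Sult2a2 in 29. Lesions of a single animal share its surrounding sample, so these counts are a description.

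Counted by overlap with surrounding liver, 10 members lay wholly below in frozen adenomas, where 3.55% of all genes did, and none wholly above, where 5.27% did. In carcinomas 6 lay wholly below (7.85% of all genes). Carcinomas held 9 members wholly above (5.61% of all genes) and foci 8 (1.2%). Foci held 3 wholly below (1.21%), FFPE adenomas 3 wholly above (1.94%) and none wholly below (1.32%), nodules 2 wholly above (1.53%) and 1 wholly below (0.816%), and beta-catenin carcinomas 1 wholly above (4.11%) and 5 wholly below (5.96%).

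Few members passed the test between lesion types. Between beta-catenin carcinomas and carcinomas limma called no member and no gene at all (0% called). An unadjusted p under 0.05 was reached by 2 members and by 723 of all 14217 genes. The largest differences were 1.03 for Sult1e1 (adjusted p = 0.999) and -1.0 for Gstp3 (adjusted p = 0.824). These 2 groups, split by label, overlapped in the mean level of 7 beta-catenin target genes. It spanned 5.91 to 9.57 in beta-catenin carcinomas and 5.82 to 8.10 in carcinomas, against 6.69 to 7.05 in frozen surrounding liver. Between adenomas and nodules limma called none as well (0% called), at differences of -2.28 for Sult1c3 (adjusted p = 0.109) and -2.11 for Gstp3 (adjusted p = 0.071). Here 9 members and 2265 of all genes had an unadjusted p under 0.05. By overlap, 6 members, Gstp3 among them, lay wholly below the nodules in adenomas, as 1.62% of all genes did, and without the animal term 3 members were called. Nodules came from animals 10, 11 and 14 and frozen adenomas from animals 14 and 23. In these counts lesion type and animal cannot be told apart, since only animal 14 gave both. FFPE adenomas and foci gave 0% called, with 1 member and 633 of all genes at an unadjusted p under 0.05. Sult1c3 was the member with the largest difference, 1.12 (adjusted p = 0.999). Carcinomas minus adenomas gave the 2 calls named, Gstm2 higher (1.17% of all genes were higher) and Gstcd lower (1.78%). By overlap 4 members lay wholly above (5.06% of all genes) and 3 wholly below (7.6%). Carcinomas came from animals 10, 21 and 23, so only animal 23 gave both types, and the overlap counts carry the same limit.

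The 7 sulfotransferases that fell in frozen adenomas and the 1 that fell in FFPE adenomas were set against each other by testing the difference of the adenoma change between fixations. No member passed. The difference, frozen minus FFPE, was -1.79 for Sult2a2 (adjusted p = 0.312), -1.28 for Sult2a6 (adjusted p = 0.316), -1.70 for Sult1c3 (adjusted p = 0.355), -1.74 for Gstp3 (adjusted p = 0.108) and -1.56 for Gstm2 (adjusted p = 0.118). Animal 14 gave adenomas in both fixations, and the titles of 2 frozen and 2 FFPE adenomas of it share tumour numbers (1 of these FFPE adenomas has the source name of surrounding tissue), a sharing the test did not model. Fixation and the way the tissue was isolated (whole pieces or microdissection) cannot be told apart.

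Genes that supply, handle or export the conjugates were measured as a list of 41, of which 39 were on the array. In comparisons with surrounding liver, 7 rose (15.4% of all genes did) and 6 fell (9.57%) in frozen adenomas. In carcinomas 8 rose (4.48%) and 3 fell (6.91%), and in beta-catenin carcinomas 13 rose (7.74%) and 5 fell (9.58%). In foci 11 rose (1.81%) and 1 fell (1.36%), and in FFPE adenomas 9 rose (1.29%) and 1 fell (0.872%). The medians of the list were 0.07, 0.09, 0.17, 0.20 and 0.16 in the same order. In nodules 1 rose (0.19% of all genes) and none fell (0.0352%), with a median of 0.04. The share of the list that rose in frozen adenomas and the shares that fell in both carcinoma groups were near those of all genes. Nothing about the list is read from these counts, and its members are given one by one.

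The cosubstrates came first among them. Ugdh, which makes UDP-glucuronic acid, rose in every lesion type, by 0.78 in nodules, 1.27 in frozen adenomas, 1.06 in carcinomas, 0.89 in beta-catenin carcinomas, 1.82 in foci and 1.77 in FFPE adenomas, and Ugp2, which makes its precursor, rose by 0.78 in foci and 0.66 in FFPE adenomas. Papss1, which makes the sulfate donor PAPS, rose by 1.56 in frozen adenomas, 0.96 in carcinomas and 1.05 in beta-catenin carcinomas. The sulfate transporter Slc26a1 fell by 1.04 in frozen adenomas, and Slc35b2, which carries PAPS into the Golgi, rose by 0.65 in beta-catenin carcinomas. Of the glutathione supply, the catalytic subunit Gclc rose by 1.72 in frozen adenomas, 1.48 in carcinomas, 1.22 in beta-catenin carcinomas, 1.89 in foci and 1.60 in FFPE adenomas. Its modifier Gclm rose by 1.19, 0.85, 1.35 and 1.22 in the last 4 of these. The glutathione synthetase Gss rose by 0.97, 1.37 and 0.76 in the 3 frozen ones, and the reductase Gsr by 1.19, 1.12, 1.21 and 1.02 in both carcinoma groups, foci and FFPE adenomas.

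The membrane transferase Mgst2 rose by 0.81 in frozen adenomas, 0.66 in carcinomas, 1.07 in foci and 1.04 in FFPE adenomas, while Mgst3 fell by 0.69 in beta-catenin carcinomas and the prostaglandin D synthase Hpgds fell by 0.50 in carcinomas and 0.67 in beta-catenin carcinomas. Of the mercapturate pathway, which trims and acetylates glutathione conjugates, Ggt1, a further classical marker of rat foci, rose by 2.43 in foci and 2.09 in FFPE adenomas. The acetyltransferase Nat8 fell, with changes of -1.98 in frozen adenomas, -1.92 in carcinomas and -1.09 in beta-catenin carcinomas. The aminoacylase Acy3 fell by 0.87, 1.23 and 1.11 in these and by 0.96 in foci, and Acy1 by 0.48 in frozen adenomas and 0.43 in beta-catenin carcinomas.

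Of the exporters, Abcc1 rose by 2.11 in frozen adenomas, 1.75 in foci and 1.56 in FFPE adenomas. The canalicular pump Abcc2 rose by 0.70 in beta-catenin carcinomas and 0.81 in foci, and Abcc3 by 0.62 in beta-catenin carcinomas and 0.63 in foci and FFPE adenomas alike. Abcg2 rose by 0.71 in frozen adenomas and 0.90 in beta-catenin carcinomas. The sulfatase Arsa rose by 0.35 in beta-catenin carcinomas. Of the regulators, Nr1i3, the gene of the PB receptor CAR, rose by 0.57 in carcinomas, 1.13 in beta-catenin carcinomas and 0.72 in foci. Nr1i2, the gene of PXR, fell by 0.96 in frozen adenomas and 0.75 in FFPE adenomas, Hnf4a fell by 0.24 in frozen adenomas, and Ahr rose by 1.03 in beta-catenin carcinomas. Nr1i2 and Ahr were higher in carcinomas than in adenomas by 0.78 and 1.13.

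**Figure D5:**
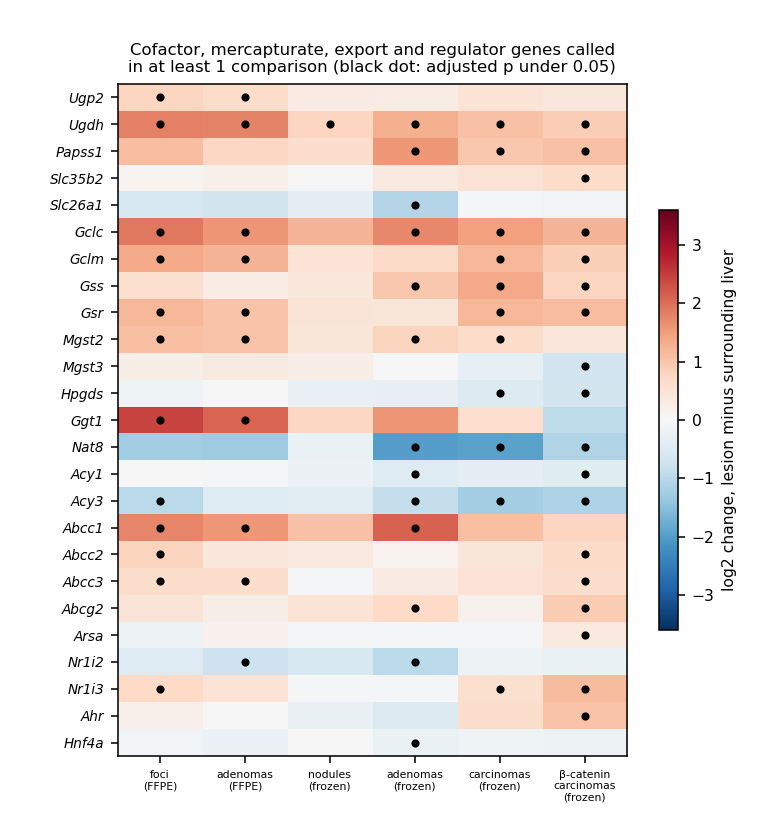
Log2 change in each lesion type minus surrounding liver (across) for the genes of cosubstrate supply, the mercapturate pathway, export and regulation that were called at least once (down the page), with a black dot at a limma adjusted p under 0.05. Ugdh carries a dot in every lesion type, Gclc in every type except nodules, and Nat8 reaches the most negative value in frozen tissue.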

How the data were processed

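Labelled RNA of each sample was hybridised to 1 Affymetrix rat array. The authors deposited 1 log2 value per probe set and array, which was used unaltered. The base of the logarithm was read from their range (2.14 to 15.13), and the background correction, summarization and normalization are not given in the sources used here. Of 31042 probe sets, 20826 had 1 symbol and were reduced to 14217 genes by the highest mean over the study arrays of a fixation, while 436 probe sets naming several genes and 9780 naming no gene were not used. Frozen (26 arrays) and FFPE (18 arrays) tissue had separate fits (limma 3.58.1, R 4.3.3), with group and animal as terms, empirical Bayes moderation with an intensity trend, and Benjamini-Hochberg adjustment over all genes, leaving 17 and 12 residual degrees of freedom. The procedure was tested on simulated data. The animals pair the lesions with their surrounding liver, per the labels: deviations from group means correlated with a median r of 0.13 (frozen) and 0.11 (FFPE) between arrays of 1 animal and of -0.02 and -0.04 between animals.

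Arrays give no molecule counts, so their number limits precision. P-values measure the spread of arrays left after the group and animal terms, with lesions and surrounding liver pooled. Differences in level between animals do not enter that spread, and several lesions share an animal. Genes named with values were all those called in a comparison (the 12 largest changes where more were called, the 2 largest where none was), and values by array were given for the 4 genes of each family called most often. The members and all gene lists were chosen with earlier results of these data known. Symbols and neighbours follow RefSeq, GRCr8, in which 42 of the 43 members were listed. The labels are uncertain at 3 points. The animal field of the 4 arrays of animal 21 lists several numbers. In addition, 1 beta-catenin carcinoma has a source name without the mutation, and 1 FFPE adenoma has the source name of surrounding tissue. All these arrays were grouped by their group field. Alternatives covered the animal term, the control set, normalization, the probe set rule, a filter on dim genes, the trend and each array left out.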

Additional observations from a re-analysis of the deposited data

Results flagged for a closer look

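Among 13 genes with values by array, 104 groups of 4 to 9 arrays were examined for an array far from the others of its group, and 10 held one, where chance alone gives about 1 in 20. The 13 genes included Ugt2b, which was added after its values were seen. Its outlying arrays were therefore known beforehand, and the count of 10 is not read against that rate.

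Of the transferases, Gstp3 read 11.09 in FFPE adenoma replicate 1, against 9.34 to 9.85 in the other FFPE adenomas. Gstm5 read 9.58 in carcinoma replicate 1, against 8.02 to 8.09 in the other carcinomas. FFPE surrounding liver replicate 2, from animal 14, read 12.85 for Sult1e1 and 11.22 for Sult1c3, against 10.80 to 10.89 and 10.42 to 10.53 in the other FFPE surrounding samples. For Sult2a2, frozen adenoma replicate 2 read 5.34 against 3.46 to 3.94 in the other frozen adenomas, and nodule replicate 5 read 5.89 against 7.17 to 7.61 in the other nodules. Both came from animal 14, whose surrounding liver read 5.66 in frozen and 5.54 in FFPE tissue. Its remaining frozen adenomas read 3.48 and 3.59.

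Of the glucuronosyltransferases, Ugt2b15 read 10.55 in frozen surrounding liver replicate 1, against 11.91 to 12.70 in the others, and Ugt2b10 read 10.50 in beta-catenin carcinoma replicate 1, against 12.22 to 12.57. Ugt2b read 5.45 in nodule replicate 5 and 5.29 in frozen surrounding liver replicate 4, against 12.61 to 13.33 and 12.57 to 13.42 in the others. These 2 are the only arrays of animal 14 in their groups.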

How the results depend on the processing

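No change of a called member reversed its sign under any alternative. Without the intensity trend 3 members were called in foci and 1 in FFPE adenomas, in place of 13 and 10. With only the 2 groups compared in the fit, 2 were called in nodules, 10 in frozen adenomas (in place of 19) and 0 in carcinomas minus adenomas (in place of 2), and quantile normalization left 1 of these. With no replicate block for the animal, 3 were called in adenomas minus nodules (in place of 0), 6 in carcinomas minus adenomas and 3 in FFPE adenomas, and with the animal as a random replicate block 2, 4 and 6. With the control set as the replicate block, 7 were called in carcinomas (in place of 11) and 0 in carcinomas minus adenomas. Leaving out 1 array at a time gave 15 to 21 in frozen adenomas, 5 to 10 in beta-catenin carcinomas, 4 to 12 in carcinomas (4 without carcinoma replicate 4, 7 without carcinoma replicate 1 or surrounding replicate 5), 0 to 4 in adenomas minus nodules (4 without adenoma replicate 2, 1 without nodule replicate 4 or adenoma replicate 5), 0 to 2 in carcinomas minus adenomas (0 without carcinoma 1 or 4, nodule 5, beta-catenin carcinoma 2 or adenoma 6, and 1 without nodule 1, beta-catenin carcinoma 3 or 4 or adenoma 5), 6 to 15 in foci (6, 7 and 8 without FFPE surrounding replicates 4, 3 and 1), 5 to 11 in FFPE adenomas (5 without FFPE surrounding replicate 1 or 4, 6 without FFPE adenoma replicate 5), and 0 to 1 for the difference between fixations (1 without frozen adenoma replicate 2). The causes were not tested. Gstp3, Sult2a2, Sult1e1 and Gstm5 in carcinomas, and Gsta4, Gstm4 and Sult1c3 in foci, were called under every alternative and every array left out. The same held in frozen adenomas for Gsta3, Gsta4, Gstm4, Gstm7, Gstp3, Sult1c3, Sult1e1, Sult2a2 and Sult2a6. It also held for Gstp3, Sult2a2 and Sult2a6 in beta-catenin carcinomas and for Gsta4 in FFPE adenomas. A filter that removed the dimmest genes left 35 members in frozen and 32 in FFPE tissue.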

Other observations

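Arrays labelled C43 normal, 2 frozen and 1 FFPE, entered no comparison because their labels carry the same treatment fields as the study animals and no matching lesion. Ugt2b read 12.93 and 12.96 in the frozen ones and 12.36 in the FFPE one. Ugt2b7 read 6.32 and 5.93 and, in FFPE tissue, 5.89. Gstm1 read 13.24, 13.11 and, in FFPE tissue, 13.65. Sult2a2 read 4.86, 5.31 and, in FFPE tissue, 5.54, and Sult1e1 read 13.06 on both frozen arrays and 12.91 in FFPE tissue.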
